A study of Homo sapiens with 12 samples.

Results

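The genes described here are 41 genes of the cell division cycle, read in the SH-SY5Y line, which was derived from a human neuroblastoma, is of noradrenergic type and divides in culture. They were taken by symbol from a list of genes of S phase and mitosis, and all 41 were found among the 60710 identifiers of the count table. 15 of them act in S phase or at its start (MCM2, MCM3, MCM4, MCM5, MCM6, MCM7, PCNA, CDC6, CDT1, CCNE1, CCNE2, E2F1, RRM1, RRM2 and TYMS). 1 is the G1 cyclin CCND1. The other 25 act in G2 and mitosis (CCNA2, CCNB1, CCNB2, CDK1, CDC20, CDC25B, CDC25C, PLK1, AURKA, AURKB, BUB1, BUB1B, TTK, TOP2A, MKI67, CENPE, CENPF, KIF11, KIF20A, TPX2, BIRC5, UBE2C, HMMR, DLGAP5 and NUSAP1) and are called mitotic genes below. All 41 passed the filter on low counts and were tested with the other genes, 16366 in all.

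The study measured mRNA in 4 groups of 3 libraries, all from SH-SY5Y cells lysed after 5 h. Each well of 2 mL of medium received 10 µL of DMSO, which was given alone in the control group. In the other groups this solvent carried HPPE, zinc protoporphyrin or tin protoporphyrin to 5 µM. Zinc and tin protoporphyrin hold zinc or tin where heme holds iron, so these compounds differ from each other in the metal. The labels do not spell out HPPE. The series is titled as a study of activators of NRF2, a transcription factor of the response to oxidants. The labels number the libraries 1 to 3 in each group without saying whether they came from separate cultures, so p-values measure only the spread between these libraries, which may be technical.

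Cells copy their DNA in S phase and divide it in mitosis, and the genes for these tasks are transcribed in waves. At the end of G1, cyclin D and cyclin E kinases release E2F factors, which switch on genes for replication. In resting and G1 cells the DREAM complex represses the mitotic genes through an element called the CHR, and later B-MYB and FOXM1, joined to the MuvB core at the CHR, switch them on. The CCAAT boxes of such promoters are bound by NF-Y. In neuroblastoma lines, cyclin D1 is known for its high level. In bulk RNA, fewer cells in a phase and less RNA per cell in that phase cannot be told apart.

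Many promoters of these genes, but not all, carry letters through which the waves are known to be read. For 32 of the 41 genes the RefSeq table (GRCh38.p14) gave the 300 bases from 250 before to 50 after the start. MCM4, MCM5, CCNE2, CCND1, AURKA, TTK, TPX2, BIRC5 and UBE2C were not in it. Where a gene had more than 1 start, as 7 of them did, the first listed was used. Both strands were searched for the E2F letters TTTCCCGC, TTTGGCGC, TTTCGCGC and TTTGCCGC, for the CCAAT box CCAAT, and for the CHR letters TTTGAA. E2F letters were found in 9 of 12 S phase promoters (75%), in 2 of 20 mitotic promoters (10%) and in 3.33% of all 27305 promoters. The CHR letters showed the opposite split, with 1 of 12 S phase promoters (8.33%), 12 of 20 mitotic ones (60%) and 15.4% of all promoters. CCAAT boxes were common to both, in 8 of 12 S phase promoters (66.7%) and 16 of 20 mitotic ones (80%), against 35.7% of all. CCNE1, CDC25B, CDC25C and CENPE had no match to any of these motifs. A match is a description of letters and not a shown binding site.

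8 promoters are printed here because most of these genes carry the differences reported further on: RRM2 was higher with HPPE, PCNA, CDK1, CCNB1, MKI67 and CENPF differed between HPPE and zinc protoporphyrin, and MCM6 and CCNB2 show clear E2F and CHR letters. Each line gives the 160 bases before the start, 5′ to 3′ on the gene's strand. Capitals mark the matches to the motifs just named that lie wholly within these bases.
RRM2 (chr2:10122579-10122738, plus strand): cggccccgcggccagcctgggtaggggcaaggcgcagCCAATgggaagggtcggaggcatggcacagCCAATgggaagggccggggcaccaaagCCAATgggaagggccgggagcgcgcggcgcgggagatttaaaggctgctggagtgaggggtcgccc
PCNA (chr20:5126623-5126782, minus strand): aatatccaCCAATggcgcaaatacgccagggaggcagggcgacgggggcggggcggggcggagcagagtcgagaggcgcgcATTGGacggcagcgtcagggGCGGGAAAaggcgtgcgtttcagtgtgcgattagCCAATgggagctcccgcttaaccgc
MCM6 (chr2:135876444-135876603, minus strand): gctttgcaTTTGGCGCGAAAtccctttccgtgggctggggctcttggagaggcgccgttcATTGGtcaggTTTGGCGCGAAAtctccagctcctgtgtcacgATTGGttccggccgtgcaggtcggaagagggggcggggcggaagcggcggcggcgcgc
CDK1 (chr10:60778171-60778330, plus strand): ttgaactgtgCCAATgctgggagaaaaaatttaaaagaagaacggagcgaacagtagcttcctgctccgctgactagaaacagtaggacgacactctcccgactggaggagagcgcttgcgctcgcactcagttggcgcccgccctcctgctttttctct
CCNB1 (chr5:69166990-69167149, plus strand): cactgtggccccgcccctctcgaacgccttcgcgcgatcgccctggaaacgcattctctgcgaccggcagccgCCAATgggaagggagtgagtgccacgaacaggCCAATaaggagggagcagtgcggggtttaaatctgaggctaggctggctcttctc
CCNB2 (chr15:59104986-59105145, plus strand): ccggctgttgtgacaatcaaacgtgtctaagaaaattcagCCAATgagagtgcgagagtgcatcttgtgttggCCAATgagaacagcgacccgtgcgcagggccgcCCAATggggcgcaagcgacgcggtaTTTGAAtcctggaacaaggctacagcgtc
MKI67 (chr10:128126424-128126583, minus strand): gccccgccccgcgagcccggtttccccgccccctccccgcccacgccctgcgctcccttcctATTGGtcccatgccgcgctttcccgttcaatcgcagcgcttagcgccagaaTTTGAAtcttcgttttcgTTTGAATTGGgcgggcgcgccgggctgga
CENPF (chr1:214603035-214603194, plus strand): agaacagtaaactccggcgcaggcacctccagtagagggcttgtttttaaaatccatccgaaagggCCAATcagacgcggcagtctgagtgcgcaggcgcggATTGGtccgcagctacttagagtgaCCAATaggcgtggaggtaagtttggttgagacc

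In the RRM2 line the 3 capital runs are CCAAT boxes, at 123, 93 and 66 bases before the start, and no E2F letters were found in its 300 bases. PCNA carried 1 E2F match, on the opposite strand, and 3 CCAAT boxes. In MCM6 each long capital run is a pair of overlapping E2F matches, TTTGGCGC on the gene's strand and GCGCGAAA for the opposite one, so its 4 matches fall at 2 places. CCNB2 carried a CHR match 29 bases before the start behind 3 CCAAT boxes. MKI67 carried CHR matches at 47 and 29 bases, the nearer of which shares letters with a CCAAT box. Over the 300 bases CDK1 also had 1 CHR and 1 E2F match, and CENPF 1 CHR match. CENPF and CCNB2 each had 4 CCAAT boxes there. Matches not wholly within the printed bases are not in capitals.

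**Figure D1:**
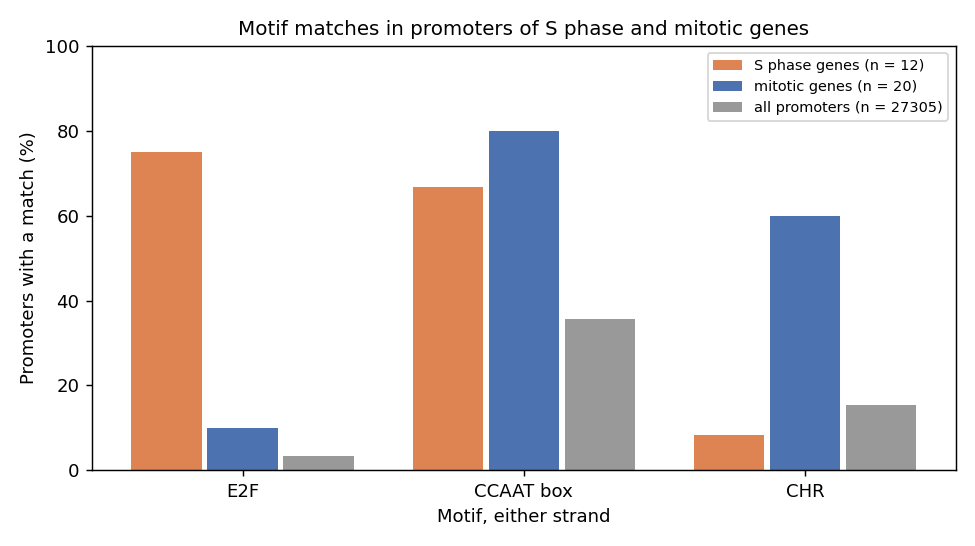
Share of promoters (%) with at least 1 match on either strand to each motif, for S phase genes (12 promoters), mitotic genes (20) and all promoters of the table (27305). E2F letters were in 75% of S phase and 10% of mitotic promoters, and CHR letters in 8.33% and 60%.

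Levels are given in CPM (counts per 1e+06 counts), scaled between libraries by the trimmed mean of M values. The libraries held 1337028 to 9145399 counts, and 3 counts, the floor used for a gene that is present, correspond to 0.337 to 2.26 CPM. 2 libraries were shallow, control 3 with 1514595 counts and zinc protoporphyrin 1 with 1337028. Within groups the libraries stood apart along a shared axis that held 52.7% of the within-group variance over 10972 genes. Spearman's rho between transcript length and a library's deviations was lowest in tin protoporphyrin 1, at -0.54, and highest in zinc protoporphyrin 3, at 0.57. In library order it was 0.44, 0.19 and -0.46 in the controls and -0.54, 0.52 and -0.18 with tin protoporphyrin. With HPPE it was -0.10, -0.47 and -0.45, and with zinc protoporphyrin 0.22, 0.38 and 0.57. All HPPE libraries thus lay below 0 and all zinc protoporphyrin libraries above it. HPPE 2 and 3 differed by little more than counting noise (chi-square per degree of freedom 1.11, against 1.49 to 17.3 in the other pairs). Noradrenergic markers were present, with 9 of 10 above the floor in every library, and all 5 leukocyte markers were at or under the floor. The summed noradrenergic level was 5258 to 5508 CPM in the controls and lower in all 9 treated libraries, with 4966 to 4985 CPM with HPPE, 4599 to 5098 CPM with zinc protoporphyrin and 4941 to 5110 CPM with tin protoporphyrin. With each compound 8 of the 9 tested noradrenergic markers had a log2 difference below 0. 1 of them was called lower with HPPE (all genes 1.47%), and 0 were called with zinc or tin protoporphyrin. Of 10 markers of mesenchymal or substrate-adherent cells, a type that this line can hold, 9 were tested. With HPPE, zinc and tin protoporphyrin, 3, 3 and 4 were called higher (all genes 2.57%, 1.84% and 1.9%). 1 was called lower with zinc protoporphyrin (all genes 0.415%). The log2 difference was above 0 in 6, 8 and 8 of the 9 and below 0 in 3, 1 and 1. CD44 rose with all 3 compounds (log2 0.68, 0.53 and 0.72). The summed level of these markers was 508 to 537 CPM in the controls, 555 to 568 CPM with HPPE, 499.8 to 547 CPM with zinc protoporphyrin and 546 to 564 CPM with tin protoporphyrin, and PRRX1 was at 0 in all libraries but 1. The part of these markers in the results was not tested.

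Levels per length, in mean CPM per kilobase of the longest transcript over all 12 libraries, spanned a wide range. CCND1 was highest at 338.6, followed by MCM7 at 148.8, a subunit of the replicative helicase, and then by CENPF at 111.6 and TOP2A at 108.6. The E-type cyclin CCNE2 at 3.21 and the phosphatase CDC25C at 4.91 were among the lowest. NUSAP1, a spindle protein, stood at 0.40 and reached no more than 1.7 CPM in any library, with no count in control 3. In GENCODE 29, 62.2% of the exon bases of NUSAP1 are shared with the gene AC087721.2. The strand setting of the counting is not given in the sources used here, so its level is uncertain, as is that of TYMS, which shares 46.6% of exon bases with its neighbours ENOSF1 and TYMSOS. The same holds for CCNE2 (37.1%, with AC087752.4 and INTS8), MCM2 (23.6%, with AC023593.1 and TPRA1) and RRM2 (20.2%).

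Against the control, 2 calls were made among the 41 cell cycle genes in 3 comparisons. RRM2 was higher with HPPE and BIRC5 was lower with zinc protoporphyrin, and no member was called with tin protoporphyrin. Calls were made at an adjusted p under 0.05 with edgeR's quasi-likelihood test and Benjamini-Hochberg adjustment over all tested genes. With HPPE 1 of 41 members was called, against 4.04% of all tested genes, as 1 higher (all genes 2.57%) and 0 lower (all genes 1.47%). With zinc protoporphyrin it was 1 of 41, against 2.25%, as 0 higher (all genes 1.84%) and 1 lower (all genes 0.415%). With tin protoporphyrin edgeR called 0 of 41, against 2.28% of all genes (1.9% higher, 0.379% lower). 6, 7 and 5 members had an unadjusted p under 0.05 in these comparisons. DESeq2 also called 1, 1 and 0 members in these comparisons. Members that were not called had log2 differences as large as -0.61 (UBE2C with zinc protoporphyrin), so the lack of a call does not show that a gene did not change. The 3 comparisons share the same control libraries, so they are not independent of each other.

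**Figure D2:**
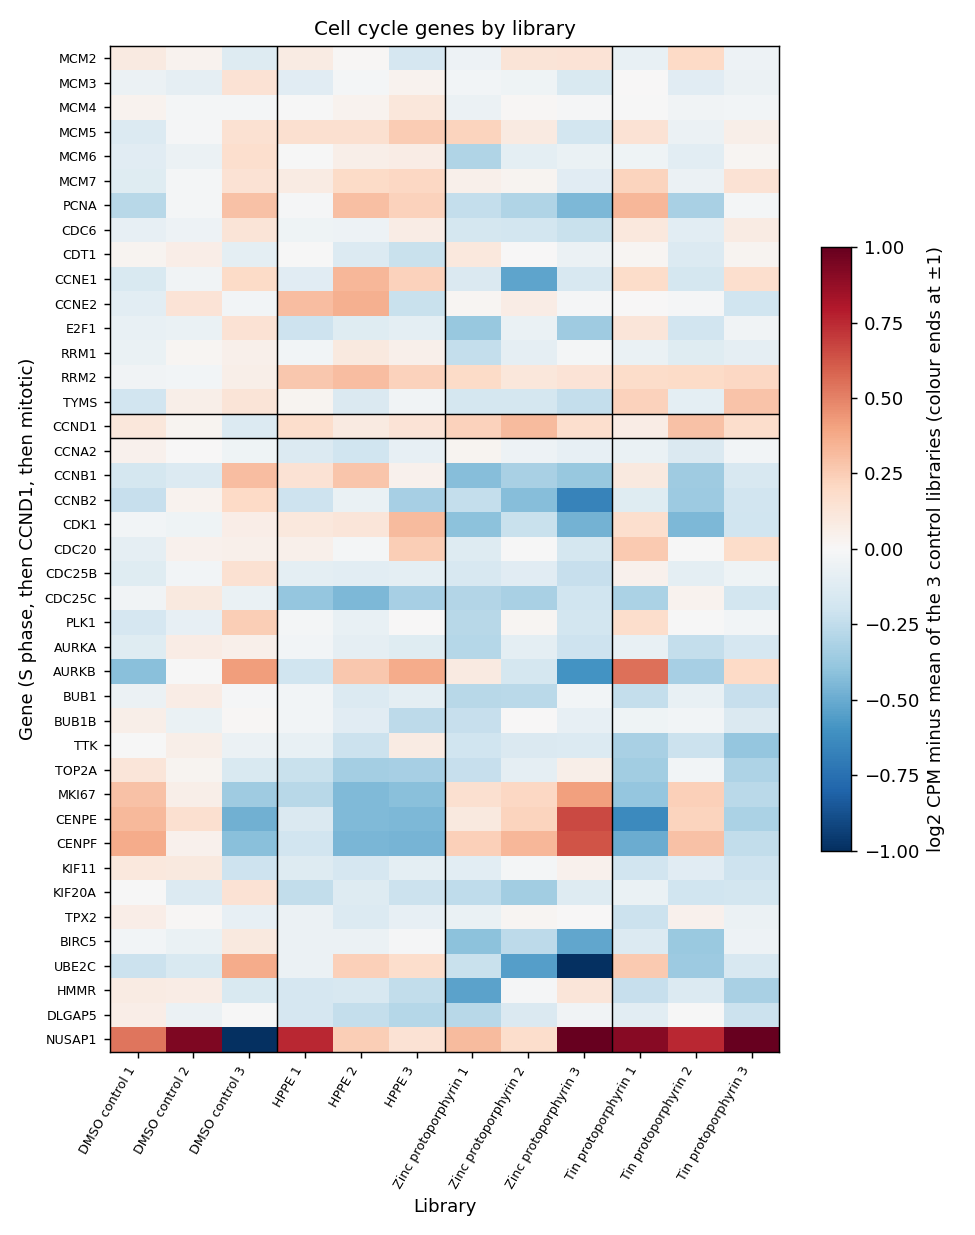
Level of each of the 41 genes (y axis, S phase, then CCND1, then mitotic) in each of the 12 libraries (x axis), as log2 CPM minus the mean of the 3 control libraries. Colours differ between the libraries of 1 group for the long genes CENPF, MKI67 and CENPE, which are highest in zinc protoporphyrin 3 and lie below the control mean in control 3, all HPPE libraries and tin protoporphyrin 1 and 3.

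Among the S phase genes, RRM2 encodes the regulated subunit of ribonucleotide reductase, which makes deoxyribonucleotides for DNA synthesis. It lies at chr2:10120698-10131419 (GRCh38, GENCODE 29), with 20.2% of its exon bases shared with AC007240.1. RRM2 stood at 205, 207 and 219.5 CPM in the control libraries and at 254, 260.7 and 247 CPM with HPPE. With zinc protoporphyrin it was at 240.2, 228 and 232 CPM, and with tin protoporphyrin at 239.5, 241 and 244 CPM. All 9 treated libraries were above all 3 controls, and the HPPE libraries were the highest. The fold change with HPPE was 1.21 (log2 0.28 ± 0.07 SE, adjusted p = 0.0324). The log2 differences with zinc protoporphyrin, 0.15 (adjusted p = 0.271), and tin protoporphyrin, 0.20 (adjusted p = 0.167), did not pass. RRM1, the other subunit, had a log2 difference of 0.05 with HPPE.

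The call for RRM2 was lost in 12 of 24 other fits, in which the log2 difference stayed between 0.25 and 0.30 and the adjusted p reached 0.207. Among these are the fits without control 1 or 2, any 1 HPPE library, zinc protoporphyrin 2 or 3, or tin protoporphyrin 3 (adjusted p 0.0521 to 0.207).

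The other S phase genes did not pass the test in any comparison with the control. CCNE2 and CCNE1, the cyclins of the start of S phase, had the next largest log2 differences with HPPE. CCNE2 was at 9.7, 11.5 and 10.2 CPM in the control libraries and at 13, 13.4 and 8.9 CPM with HPPE (log2 0.22, adjusted p = 0.511), so the groups overlapped. CCNE1 was at 14.9, 16.2 and 19.1 CPM in the control and at 15.4, 21.1 and 19.6 CPM with HPPE (log2 0.20, adjusted p = 0.554), also with overlap. With zinc protoporphyrin CCNE1 was at 15.1, 11.5 and 14.9 CPM (log2 -0.26, adjusted p = 0.451).

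PCNA, the sliding clamp of the replication fork, had the lowest S phase value with zinc protoporphyrin. It was at 110.5, 132 and 165 CPM in the control libraries and at 114, 109 and 98.0 CPM with zinc protoporphyrin (log2 -0.33 ± 0.16, adjusted p = 0.275). The ranges overlapped through control 1, the lowest of the controls. TYMS, which makes thymidylate, was at 35.7, 42.6 and 44.7 CPM in the control and at 47.9, 38.1 and 49.8 CPM with tin protoporphyrin (log2 0.17, adjusted p = 0.546), with overlap. The 6 helicase subunits MCM2 to MCM7 stayed between -0.12 and 0.20 on the log2 scale in all 3 comparisons, where the ends were MCM6 with zinc protoporphyrin and MCM5 with HPPE. As a group, 10 of 15 S phase genes had a log2 difference above 0 with HPPE (median 0.05), 4 of 15 with zinc protoporphyrin (median -0.07) and 8 of 15 with tin protoporphyrin (median 0.01). Without tin protoporphyrin 1 the tin median was -0.03, and without tin protoporphyrin 2 it was 0.07. Without control 1 the tin median was -0.0117 and the HPPE median 0.0089. Over all tested genes the medians were 0.02, -0.004 and 0.01, and 52.3%, 49.5% and 51.6% of them were above 0.

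CCND1, cyclin D1, which starts the passage out of G1, was at 1429, 1344 and 1201.5 CPM in the control libraries. It was at 1492, 1404 and 1453 CPM with HPPE, at 1553, 1643 and 1483 CPM with zinc protoporphyrin, and at 1391, 1615 and 1494 CPM with tin protoporphyrin. Its 3 zinc protoporphyrin libraries lay above all 3 controls, while the other groups overlapped them. The log2 differences of 0.13, 0.23 and 0.18 did not pass (adjusted p = 0.486, 0.177 and 0.376).

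Most mitotic genes lay slightly below the control with every compound, and BIRC5 with zinc protoporphyrin was the 1 that passed the test. With HPPE 19 of 25 had a log2 difference below 0, with zinc protoporphyrin 21 and with tin protoporphyrin 21. Over all tested genes 52.3%, 49.5% and 51.6% were above 0. The same control libraries stand in all 3 comparisons, so these counts are not independent. The median differences were -0.12, -0.12 and -0.13. Per library, the median of the 25 genes against the control mean was -0.002, 0.03 and -0.001 in the controls. It was -0.09, -0.13 and -0.10 with HPPE, -0.23, -0.09 and -0.13 with zinc protoporphyrin, and -0.11, -0.09 and -0.18 with tin protoporphyrin. All 9 treated libraries were thus below the 3 controls, although the controls set the zero of this scale. The S phase medians did not separate in this way, with controls from -0.08 to 0.13 and treated libraries from -0.11 to 0.11. In 43 other mitotic genes, described further on, the medians were 0.03, 0.004 and -0.04 in the controls. Those of zinc protoporphyrin, -0.16, -0.01 and 0.0004, overlapped the controls. The medians of HPPE (-0.14 to -0.09) and tin protoporphyrin (-0.17 to -0.06) lay below them.

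**Figure D3:**
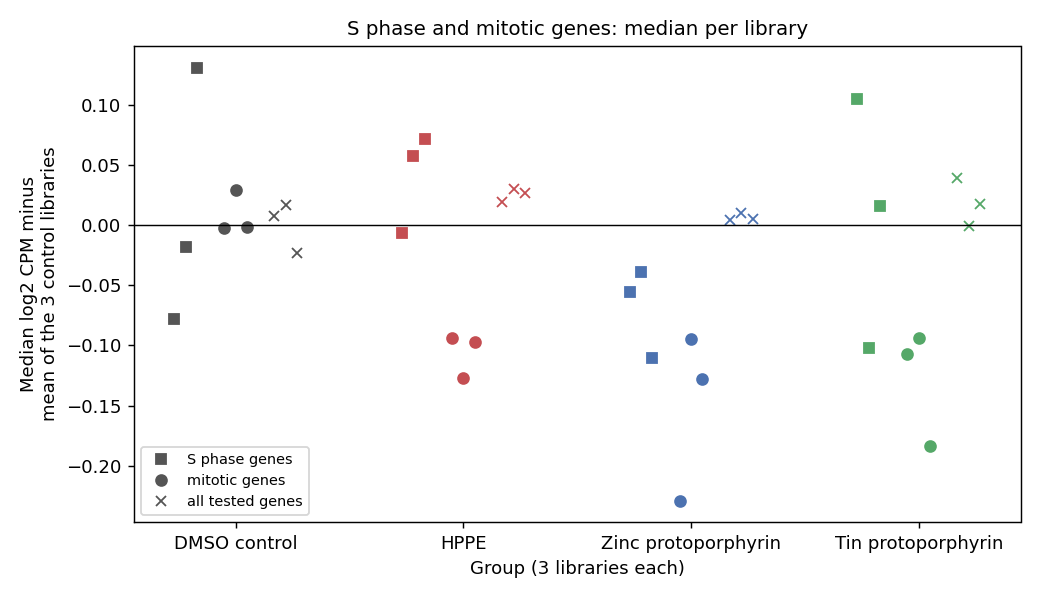
Median over the S phase genes (15) and the mitotic genes (25) of log2 CPM minus the mean of the 3 controls, 1 point per library, by group. Mitotic medians of the treated libraries sit between -0.23 and -0.09 and those of the controls between -0.002 and 0.03, while the S phase medians overlap.

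A few genes with many counts weigh more on the sum of the 25 mitotic genes than on their median. The summed level of the 25 mitotic genes was 4804, 4305 and 3716 CPM in the controls, 3765, 3460 and 3481 CPM with HPPE, 4212, 4479 and 5032 CPM with zinc protoporphyrin, and 3459, 4477 and 3631 CPM with tin protoporphyrin. These sums overlapped between control and each compound, and CENPF and MKI67 made up a large share of them. The sums with HPPE and with tin protoporphyrin reached below the lowest control, and those with zinc protoporphyrin above the highest.

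BIRC5 encodes survivin, a subunit of the chromosomal passenger complex that corrects attachments of chromosomes to the spindle. It lies at chr17:78214186-78225636. BIRC5 was at 149, 146 and 163 CPM in the control libraries and at 114, 127 and 106 CPM with zinc protoporphyrin. With HPPE it was at 146, 146 and 151 CPM, and with tin protoporphyrin at 138, 118 and 147 CPM. The zinc protoporphyrin libraries lay below all controls, the HPPE libraries within them, and tin protoporphyrin partly below. It fell with zinc protoporphyrin by 0.38 on the log2 scale (SE 0.10, adjusted p = 0.0440). The call was lost in 13 of 24 other fits, among them those without any 1 control library, any 1 HPPE library, or zinc protoporphyrin 1 or 3 (log2 -0.42 to -0.31, adjusted p 0.0557 to 0.281), and without both shallow libraries (log2 -0.34, adjusted p = 0.151).

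Other drivers of mitotic entry and exit had low values with zinc protoporphyrin that did not pass the test. UBE2C, the ubiquitin-conjugating enzyme of the anaphase-promoting complex, was at 48.4, 50.4 and 72.7 CPM in the controls and at 48.2, 38.3 and 27.8 CPM with zinc protoporphyrin (log2 -0.61 ± 0.20, adjusted p = 0.109). CCNB2, a B-type cyclin, was at 36.2, 43.7 and 49.1 CPM in the controls and at 36.1, 31.7 and 26.8 CPM (log2 -0.46 ± 0.13, adjusted p = 0.0774). In both genes all 3 zinc protoporphyrin libraries lay below all 3 controls, by very little in the nearest pair. CDC6, CCNB1, CDK1, CDC25C, TTK and BIRC5 showed the same separation, so 8 of 41 members lay wholly below the control, against 10.4% of all genes, and RRM2 and CCND1 wholly above, against 11.6%.

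With HPPE the lowest mitotic values belonged to CDC25C, CENPE, MKI67 and CENPF. CDC25C, the phosphatase that activates CDK1, was at 11.8, 12.9 and 11.5 CPM in the controls and at 9.1, 8.7 and 9.5 CPM with HPPE (log2 -0.43 ± 0.15, adjusted p = 0.127), with no overlap. CENPE, a kinesin of the kinetochore, was at 195, 174 and 112 CPM in the controls and at 141, 114 and 114 CPM with HPPE (log2 -0.42, adjusted p = 0.299), with overlap through control 3. 6 members lay wholly below the control with HPPE (E2F1, CCNA2, CDC25C, TOP2A, HMMR and DLGAP5), against 9.44% of all genes, and MCM5, RRM2 and CDK1 wholly above, against 11.9%. Without control 3, and likewise without tin protoporphyrin 2, MKI67 and TOP2A were called lower with HPPE. In these fits 6.15% and 6.54% of all genes were called in either direction. With all libraries, TOP2A, the topoisomerase that untangles sister chromosomes, had a log2 difference of -0.31 (adjusted p = 0.118).

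With tin protoporphyrin TTK, the kinase of the spindle checkpoint, had the lowest log2 difference, at -0.32. It was at 51.1, 53.3 and 49.1 CPM in the controls and at 40.8, 44.1 and 39.1 CPM with tin protoporphyrin (adjusted p = 0.0904), with no overlap. BUB1 was the other member wholly below the control, so there were 2 of 41, against 7.6% of all genes, and RRM2 was the 1 wholly above, against 10.3%. NUSAP1 had a log2 difference of 0.32 ± 0.47 at 1.3, 1.1 and 1.4 CPM, which is near the floor, and its groups were not distinguished at this depth. Without tin protoporphyrin 2, TTK and TOP2A were called lower, where 3.71% of all genes were called in either direction.

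**Figure D4:**
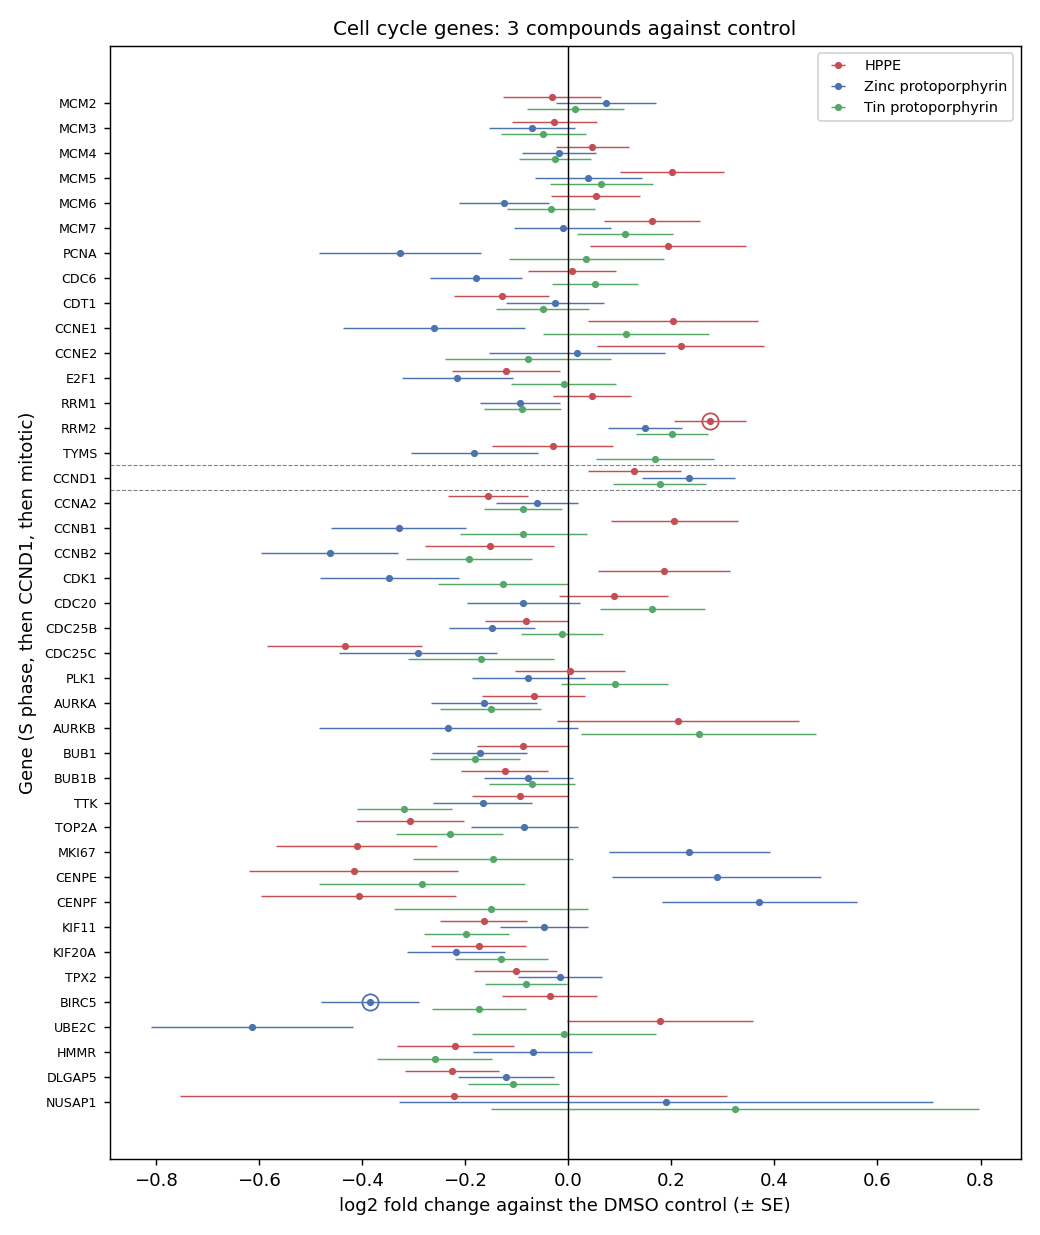
log2 fold change against the DMSO control (x axis, bars ± SE) of each of the 41 genes (y axis) for HPPE, zinc protoporphyrin and tin protoporphyrin. Most mitotic genes lie left of 0 for all 3 compounds, and CENPF, CENPE and MKI67 lie left of 0 with HPPE and right of it with zinc protoporphyrin.

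The compounds were then compared with each other at 5 µM and 5 h, in 3 pairs, with p-values adjusted over all tested genes. HPPE and zinc protoporphyrin differed in 8 of 41 members, against 12.7% of all genes. UBE2C, CCNB1, CDK1, PCNA and BIRC5 were higher with HPPE (5 of 41, against 6.44% of all genes), and CENPF, CENPE and MKI67 were lower (3 of 41, against 6.26%). 12 members lay wholly above zinc protoporphyrin, against 19% of all genes, and 5 wholly below, against 17.7%. 13 of 15 S phase genes and 13 of 25 mitotic genes were above 0, against 50.9% of all genes. In this pair edgeR gave 12 members an unadjusted p under 0.05, and DESeq2 called 5 higher and 2 lower.

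CCNB1 and CDK1 encode cyclin B1 and its kinase, which together drive entry into mitosis. CCNB1 (chr5:69167010-69178245) was at 85.2, 93.5 and 79.5 CPM with HPPE and at 57.2, 61.5 and 59.2 CPM with zinc protoporphyrin, a log2 difference of 0.54 ± 0.13 (adjusted p = 0.0166). CDK1 (chr10:60778331-60794852) was at 83.2, 84.1 and 96.3 CPM with HPPE and at 58.0, 66.2 and 55.5 CPM with zinc protoporphyrin, a difference of 0.53 ± 0.13 (adjusted p = 0.0196). In both genes these groups did not overlap. The controls lay above zinc protoporphyrin in both, at 68.3, 70.4 and 95.7 CPM for CCNB1 and 75.9, 74.8 and 81.0 CPM for CDK1, and overlapped HPPE in CCNB1.

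UBE2C (chr20:45812576-45816957) was at 54.0, 66.5 and 63.6 CPM with HPPE, all above the zinc protoporphyrin libraries given before, a log2 difference of 0.79 ± 0.19 (adjusted p = 0.0181). PCNA (chr20:5114953-5126626) was at 133, 165 and 157 CPM with HPPE, again above all 3 zinc protoporphyrin libraries (log2 0.52 ± 0.15, adjusted p = 0.0382). BIRC5 differed by 0.35 ± 0.09 (adjusted p = 0.0274).

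The 3 members that were lower with HPPE are the longest of the 41. CENPF, a large kinetochore protein (chr1:214603195-214664588), was at 993, 827 and 820.1 CPM with HPPE and at 1339, 1425 and 1755 CPM with zinc protoporphyrin (log2 -0.78 ± 0.19, adjusted p = 0.0195). MKI67, the source of the Ki-67 antigen of dividing cells (chr10:128096659-128126385), was at 629.5, 562 and 570.2 CPM and at 855, 880.2 and 1017 CPM (log2 -0.65 ± 0.16, adjusted p = 0.0189). CENPE (chr4:103105806-103198409) was at 166, 182 and 246 CPM with zinc protoporphyrin, and its log2 difference was -0.70 ± 0.20 (adjusted p = 0.0354). None of the 3 overlapped between these compounds. The control libraries were spread from 851 to 1469.5 CPM for CENPF and from 597 to 936 CPM for MKI67, with control 3 lowest in both.

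Single libraries decided how many members passed in this pair. Without HPPE 2, and likewise without zinc protoporphyrin 3, 0 members were called in either direction, against 1.1% and 1.03% of all genes. Without HPPE 3 it was 1 (CCNB1, all genes 2.02%), and without zinc protoporphyrin 1 it was 3 higher and 3 lower (all genes 8.83%). With HPPE 2 and 3 summed as 1 library, 1 higher and 0 lower remained (all genes 2.71%). With all libraries the share was 12.7%, so the calls fell over all genes as well. Over the 24 other fits CCNB1 lost its call in 2, CDK1, UBE2C and MKI67 in 4 each, CENPF in 5, BIRC5 in 6, PCNA in 9 and CENPE in 10, and no sign changed among these 8 genes.

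The differences between HPPE and zinc protoporphyrin went with transcript length. Over the 41 genes, Pearson's r between log2 length and the log2 difference was -0.79 and Spearman's rho was -0.57, where the genes share the same 6 libraries. Over the 16185 tested genes with a length, rho was -0.23. The 6 genes shorter than 2000 nucleotides (UBE2C, AURKB, PCNA, TYMS, CDC20 and CDK1) had a median of 0.48, and the 4 longer than 5000 (TOP2A, CENPE, CENPF and MKI67) one of -0.67. The longest transcripts listed are 914 nucleotides for UBE2C, 1948 for CDK1, 8612 for CENPE, 10307 for CENPF and 12678 for MKI67. Against the control, r was -0.53 with HPPE (rho -0.31, over all genes -0.24), 0.75 with zinc protoporphyrin (rho 0.67, over all genes 0.09) and -0.37 with tin protoporphyrin (rho -0.25, over all genes -0.18). The same relation between length and level separated libraries of 1 group, and all HPPE from all zinc protoporphyrin libraries, as given above. Its part in these calls was not tested. In 1 further fit the length and GC trend of each library, estimated from tested genes and not from the 41 alone, was taken out. There r was still -0.61 and the medians were 0.30 and -0.42. UBE2C, CCNB1, CDK1, PCNA and BIRC5 were then again called higher, and CENPF, CENPE and MKI67 lower, with TOP2A in addition. Since the relation among the 41 genes remained, this fit cannot tell a difference between the compounds from a trend of the libraries.

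**Figure D5:**
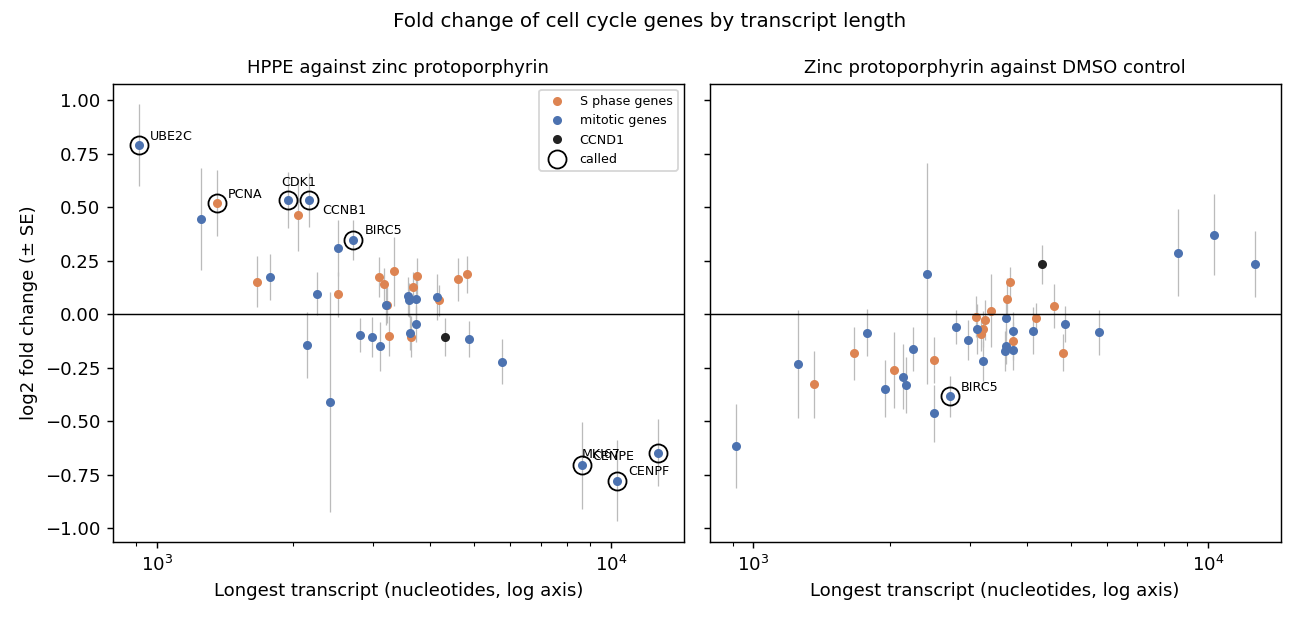
log2 fold change (y axis, ± SE) of the 41 genes against the length of the longest transcript in nucleotides (x axis, log scale), with called genes circled. Between HPPE and zinc protoporphyrin the short genes UBE2C, PCNA and CDK1 lie above 0 and the long genes CENPE, CENPF and MKI67 below.

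Zinc and tin protoporphyrin, which differ in the metal, were not separated in any of the 41 genes by edgeR, against 0.00611% of all genes called (0.00611% higher with zinc and 0% lower), and DESeq2 also called 0. 11 members had an unadjusted p under 0.05, and 4 of 15 S phase and 10 of 25 mitotic genes were above 0 with zinc, against 48.8% of all genes. TTK and KIF11 lay wholly above with zinc, against 6.56% of all genes, and CDC6, TYMS, CDC20 and CDC25B wholly below, against 6.38%. The absence of a call does not show that the compounds act alike. The intervals that follow are 95% intervals from the SE, of the log2 difference of zinc less tin. They are not adjusted for the number of genes tested, while the calls are, so an interval can lie clear of 0 without a call. The interval ran from -0.97 to -0.24 for UBE2C, from -0.58 to -0.12 for TYMS and from -0.66 to -0.06 for PCNA (adjusted p = 0.353, 0.353 and 0.355). For CENPE it ran from 0.18 to 0.96 and for CENPF from 0.15 to 0.89 (adjusted p = 0.353 for both). For CCND1 it was -0.12 to 0.23 and for RRM2 -0.19 to 0.08, so differences larger than these were not seen there. The tin protoporphyrin libraries were far apart for long genes, with CENPF at 805, 1390.2 and 958.5 CPM, as were the control libraries. Without tin protoporphyrin 2, 3 members were higher with zinc (CENPE, CENPF and MKI67) and 5 lower (BIRC5, CDC6, PCNA, TYMS and UBE2C). In that fit 8.59% of all genes were called in either direction, so the calls rose over all genes as well. Pearson's r with log2 length was 0.87 in this pair (rho 0.73, over all genes 0.25).

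HPPE and tin protoporphyrin differed in 0 of 41 members with edgeR, against 1.45% of all genes (0.745% higher and 0.709% lower), and in 0 with DESeq2. 10 of 15 S phase and 10 of 25 mitotic genes were above 0, against 50.6% of all genes. 3 members had an unadjusted p under 0.05, CCNB1 (log2 0.29, adjusted p = 0.291), CDK1 (0.31, adjusted p = 0.276) and TTK (0.22, adjusted p = 0.289). 4 members lay wholly above in HPPE (MCM4, MCM5, RRM1 and RRM2), against 9.81% of all genes, and 2 wholly below (CDC25B and CDC25C), against 10.1%.

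Further genes of the cycle were read from lists chosen by function. Of 43 other mitotic genes, 5 fell with HPPE (1.47% of all genes fell) and 0 rose (all genes 2.57%), and 28 had a value below 0 (median -0.12). Of all genes, 52.3% were above 0 with HPPE and 49.5% with zinc protoporphyrin. NDC80, which binds microtubules at the kinetochore, fell most of the 5, from 43.9, 40.8 and 48.5 CPM to 31.4, 31.5 and 30.4 CPM (log2 -0.48 ± 0.10, adjusted p = 0.0120). The other four were the kinesin KIF4A (log2 -0.37, adjusted p = 0.0269), GTSE1 (-0.32, adjusted p = 0.0278), the condensin subunit NCAPD2 (-0.28, adjusted p = 0.0355) and the centrosomal kinase NEK2 (-0.40, adjusted p = 0.0404). With tin protoporphyrin KIF4A (-0.38, adjusted p = 0.0326) and NDC80 (-0.40, adjusted p = 0.0467) fell and 0 rose (all genes 0.379% and 1.9%), while with zinc protoporphyrin 0 were called (all genes 2.25%) with 25 below 0. Each of these calls was lost when certain single libraries were left out, and in some other fits. Of 24 other fits, the HPPE call was lost in 3 for NDC80, 7 each for KIF4A and GTSE1, 10 for NCAPD2 and 9 for NEK2. The tin protoporphyrin call was lost in 11 for KIF4A and in 19 for NDC80, for which DESeq2 gave an adjusted p of 0.106. Without control 1 the adjusted p with HPPE was 0.0765 for NDC80, 0.162 for KIF4A, 0.204 for GTSE1, 0.162 for NCAPD2 and 0.223 for NEK2, and that with tin protoporphyrin 0.176 for KIF4A and 0.204 for NDC80.

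Of 36 other replication genes, 0 were called with HPPE (all genes 4.04%), with 26 above 0 (median 0.09), against 52.3% of all genes. UHRF1, which carries DNA methylation through replication, was the 1 called with each protoporphyrin (all genes 1.84% higher with zinc and 1.9% with tin) and rose with zinc protoporphyrin (log2 0.33, adjusted p = 0.0381) and with tin protoporphyrin (0.33, adjusted p = 0.0260). Without control 2 these adjusted p-values were 0.201 and 0.196. Over 24 other fits the call was lost in 15 with zinc protoporphyrin and in 8 with tin protoporphyrin. None of 13 transcription factors of the cycle and none of 16 genes of its protein degradation was called by edgeR against the control. The shares of all genes called were 4.04%, 2.25% and 2.28% with HPPE, zinc and tin protoporphyrin.

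Of 16 genes that slow the cycle, 1 rose with HPPE (all genes 2.57%), 0 were called with zinc protoporphyrin (2.25%) and 1 fell with tin protoporphyrin (0.379%). GADD45A, a stress-induced inhibitor of CDK1 activity, rose 1.91-fold with HPPE (log2 0.93 ± 0.15, adjusted p = 0.00164). Its call held in all 24 other fits, and its adjusted p was the smallest among the listed cycle genes in the 3 comparisons with the control. CCNG1 fell with tin protoporphyrin (log2 -0.37 ± 0.08, adjusted p = 0.0198). This call was lost in 5 of 24 other fits, among them those without control 1, control 2 or tin protoporphyrin 3 (adjusted p 0.063 to 0.0998). CDKN1A, the p21 inhibitor of cyclin kinases, was at 83.2, 89.1 and 102 CPM in the controls, at 95.7, 97.3 and 98.5 CPM with HPPE, at 92.6, 85.6 and 78.3 CPM with zinc protoporphyrin and at 105, 82.7 and 85.4 CPM with tin protoporphyrin. All its groups overlapped the control (adjusted p = 0.595, 0.657 and 0.960). Of 5 tested G1 cyclins and kinases other than CCND1, CCND3, another D-type cyclin, was the 1 called with HPPE. It rose from 27.8, 31.3 and 31.3 CPM to 37.1, 39.7 and 43.7 CPM (log2 0.42 ± 0.10, adjusted p = 0.0309). The CCND3 call was lost in 9 of 24 other fits, and without control 1 its adjusted p was 0.241.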

How the data were processed

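Per the labels' protocols, total RNA of treated and control cells was made into 12 mRNA libraries with the MGIEasy RNA Library Prep Set. The authors deposited whole-number read counts per gene. The submitters' processing notes name fastp 0.21.1, STAR 2.7.7a, featureCounts and GRCh38; the annotation and strand setting are not given in the sources used here. Of the 60710 identifiers, 60481 matched a symbol. The number of value columns belonging to no sample was 0.

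From the deposited counts, edgeR 4.0.16 in R 4.3.3 was run on all 12 libraries with TMM scaling, filterByExpr by group (16366 genes, 99.6% of counts), robust quasi-likelihood fits and 6 two-sided comparisons. P-values were adjusted by Benjamini-Hochberg over all tested genes and called under 0.05. The biological coefficient of variation was 0.0913. SE is derived from the F statistic. CPM floors cover counting error only. Scripts were tested on simulated data. Alternatives were DESeq2 1.42.0, RLE or no scaling, other filters, non-robust fits, the compared groups only, the replicate number as a block, the within-group axis as a covariate, length and GC offsets (GENCODE 29), HPPE 2 and 3 summed, each of 12 libraries left out, and, chosen after seeing the data, both shallow libraries left out.

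The members and lists were chosen with earlier results of these data known. Values in every library are given for CCND1, members called against the control or between compounds, and the 2 members of each phase with the largest log2 difference in each comparison with the control. Of the further lists, up to 5 called genes each and CDKN1A are named.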

Additional observations from a re-analysis of the deposited data

How the results depend on the processing

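Across 3881 values recomputed for single genes, 3596 kept their side of the threshold, 108 passed newly and 177 no longer passed. Among the 3596, 83 changed sign while called in neither fit. The cause of the moves below was not tested. Counts are members called higher, then lower. HPPE against control (1 and 0): no filter 0 and 2, replicate block 0 higher, axis covariate 4 and 5, compared groups only 0 higher, HPPE 2 and 3 summed 0 higher, length and GC offsets 2 lower, both shallow libraries out 1 lower, leaving out single libraries 0 to 1 and 0 to 2. Zinc protoporphyrin against control (0 and 1): axis covariate 5 and 10, offsets 1 and 3, no filter 6 lower, and 0 lower unscaled, with the replicate block, with the compared groups only, with HPPE 2 and 3 summed and without both shallow libraries, leaving out single libraries 0 to 2 lower. Tin protoporphyrin against control (0 and 0): axis covariate 2 and 7, offsets 1 higher, leaving out single libraries 0 to 2 lower. HPPE against zinc protoporphyrin (5 and 3): replicate block 3 higher, axis covariate 13 higher, HPPE 2 and 3 summed 1 and 0, no filter 1 lower, leaving out single libraries 0 to 6 and 0 to 3. HPPE against tin protoporphyrin (0 and 0): axis covariate 4 and 2, leaving out single libraries 0 to 1 higher. Zinc against tin protoporphyrin (0 and 0): axis covariate 6 and 9, no filter 2 lower, leaving out single libraries 0 to 3 and 0 to 5. The share of all genes called moved too. With single libraries left out it was 1.67% to 6.54%, 0.423% to 4.44% and 0.858% to 3.71% for HPPE, zinc and tin protoporphyrin against control. In the compound pairs, in the order above, it was 1.03% to 20.8%, 0.537% to 2.02% and 0.00588% to 8.59%. The axis covariate was computed from the same libraries and raised the calls among all genes too, to 16.3% in HPPE against control and 25.4% in zinc protoporphyrin against control. It gave 13.5% in tin protoporphyrin against control, and 34.8%, 15.8% and 14.4% in the compound pairs. In HPPE against zinc protoporphyrin the share was 12.7% in the main fit. There it was 4.63% with the replicate block, 2.71% with HPPE 2 and 3 summed and 8.26% with no filter.

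The S phase median was 0.0089 to 0.0693 with HPPE, -0.10 to -0.0359 with zinc and -0.0312 to 0.0663 with tin protoporphyrin when single libraries were left out. The mitotic median with HPPE was -0.0999 with the axis covariate, -0.15 with offsets and -0.14 to -0.0867 with single libraries left out. With zinc protoporphyrin it was -0.0805 with offsets and -0.17 to -0.0891 with single libraries left out, and the S phase median was 0.0025 with offsets. For HPPE against zinc protoporphyrin the S phase median was 0.0737 with offsets (0.11 to 0.20 with single libraries left out) and the mitotic median 0.0782 unscaled and -0.0387 with offsets (0.00067 to 0.0511). For HPPE against tin protoporphyrin, leaving out single libraries gave S phase medians of 0.0117 to 0.0890 and mitotic medians of -0.0472 to 0.00025. For zinc against tin protoporphyrin the mitotic median was -0.0598 unscaled and -0.10 to 0.00877 with single libraries left out. Between 18 and 21, 19 and 22, and 17 and 21 mitotic genes were below 0 in all fits with HPPE, zinc and tin protoporphyrin. Replicate numbers did not pair the libraries: 5 of 18 same-numbered pairs correlated over 0.1 (r -0.68 to 0.52). Each library was also set against the 3 libraries of each other group. In 8 of these 36 combinations the library with the same number matched best. Depth limits NUSAP1, and no value here has more than 3 libraries behind it.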
